A study of Oryctolagus cuniculus with 24 samples.

Results

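The comparison described here is that of mock-stimulated peripheral blood mononuclear cells (PBMCs) kept for 24 h in culture (T24) with those kept for 4 h (T4), and it takes 8 of the 24 arrays of the study. The arrays were chosen by their label alone, as unstimulated controls of either time. Each group holds 4 arrays, 1 from each of 4 rabbits (adult females of the New Zealand White breed, called rabbits 1, 2, 4 and 5 here as in the labels), so that every rabbit gave a culture of both times. The cells were obtained from blood by Ficoll-Histopaque separation and kept at 37 °C and 5% CO2 in RPMI 1640 with 10% heat-inactivated fetal bovine serum. The mock cultures received the buffer without an agent, where the other cultures of the study received LPS or PMA-Ionomycin. From each culture, 200 ng of total RNA were Cy3-labelled for a custom one-colour Agilent array. No sample from before culture was analysed here, so that T4 is the start of the comparison and is itself a cultured state.

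Monocytes are blood cells that attach to culture plastic and, over days, mature towards macrophages, cells rich in lysosomes. The lysosome is an acidic compartment in which hydrolases such as the cathepsins digest proteins and lipids, and the vacuolar proton pump acidifies it. Freshly handled leukocytes also carry short-lived transcripts of cytokine and immediate early genes, and platelets, which have no nucleus, often come along in mononuclear cell preparations.

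Levels are log2 signals relative to the median of the array, and a log2 fold change (log2 FC) is T24 minus T4. Values of single arrays are given in the order of rabbits 1, 2, 4 and 5. A gene was called higher or lower when its Benjamini-Hochberg adjusted p from limma was under 0.05 over the 28890 genes tested, of which 9499 had a gene symbol. A log2 FC is followed by its standard error (SE) from limma. Where a gene was well above the local background on no array of a group, its level there is only an upper bound and the fold is written as "at least".

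On the 8 mock arrays, 55.2 to 61.2% of the non-control spots were well above background, within the range of all 24 arrays (51.4 to 62.3%), and 0 spots were saturated. Of the cell type markers with a named probe, all 12 of monocytes and all 9 of B cells were well above background on at least 1 mock array. So were 11 of 13 T cell markers, 8 of 8 dendritic cell markers and 3 of 5 markers of NK and cytotoxic cells.

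Between T4 and T24, 2143 genes were higher (7.42% of those tested) and 1482 were lower (5.13%), 12.5% in either direction. Of the 9499 genes with a symbol, to which the gene lists below were limited, 10.3% were higher and 5.94% lower. The rises held for 4 of 4 rabbits in 2081 of the 2143 genes and the falls in 1461 of the 1482. A change of at least 2-fold was seen for 798 of the higher and 621 of the lower genes. Over all genes the log2 FC had a median of -0.065. All 4 T24 arrays lay above all 4 T4 arrays for 7.18% of the genes and below them for 7.02%, shares against which the statements on overlap of single genes can be read. Without rabbit 1 or rabbit 2, 819 and 892 genes were called lower, and without rabbit 2 or rabbit 4 the calls of higher genes dropped to 1382 and 1333.

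Over the 8 arrays, time held 46.2% of the variance of the log2 signals, the rabbit 38.4% and the remainder 15.4%. On the first principal component (46.6% of the variance) the T24 arrays had scores of 34.6 to 51.3 and the T4 arrays of -50.0 to -37.7, so that the groups lay apart. The second component (25.4%) set rabbit 5 apart, with -66.0 at T24 and -41.1 at T4 against scores of -1.0 to 33.4 on the other arrays. Across genes, which are not independent replicates, the changes of a pair of rabbits had correlations between 0.578 (rabbits 1 and 5) and 0.787 (rabbits 2 and 4).

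The sequences of 6 probes show what was measured. They belong to genes that rose most (ATP6V0D2 of the proton pump and CTSK, a cathepsin), to inflammatory genes that fell (TNFAIP6 and PTGS2) and to genes of cell division that fell (CDK1 and CCNB1). Each sequence is a 60-base probe as deposited, read 5′ to 3′, and the position is that of the file on the rabbit build oryCun2, where a span above 60 bases means that the probe crosses a gap in the genome, as at an exon junction. The ATP6V0D2 probe lies at chr3:101633862-101635500 (+), that of CTSK at chr13:41358100-41359632 (+), that of TNFAIP6 at chr7:90359029-90363229 (+), that of PTGS2 at chr16:83711629-83711688 (+), that of CDK1 at chr18:25387842-25389573 (-) and that of CCNB1 at chr11:85371159-85371218 (+).
ATP6V0D2: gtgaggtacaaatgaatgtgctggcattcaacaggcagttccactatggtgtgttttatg
CTSK: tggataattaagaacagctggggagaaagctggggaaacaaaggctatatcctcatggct
TNFAIP6: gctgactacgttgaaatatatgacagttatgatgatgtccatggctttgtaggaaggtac
PTGS2: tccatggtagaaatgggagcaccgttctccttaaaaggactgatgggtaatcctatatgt
CDK1: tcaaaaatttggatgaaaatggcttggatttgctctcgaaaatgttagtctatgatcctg
CCNB1: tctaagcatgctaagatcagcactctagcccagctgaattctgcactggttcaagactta
These probes alone had log2 FC of 6.93 (ATP6V0D2), 3.79 (CTSK), -4.69 (TNFAIP6), -3.67 (PTGS2), -2.47 (CDK1) and -2.45 (CCNB1), and the values below are means over all probes of a gene.

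Lysosomal genes rose together in mock culture. Of 27 measured genes of lysosomal hydrolases and membrane proteins, 24 were higher at T24 and none was lower, with a median log2 FC of 1.77. Of 14 measured genes of the vacuolar proton pump, 12 were higher and none lower, with a median of 1.53. The summed level of the monocyte markers (log2 of the sum of their linear levels, in which bright members weigh most) was also higher. It was 7.87 to 8.88 on the T4 arrays and 9.17 to 10.23 on the T24 arrays, while 7 of the 12 markers were not called. The part of monocyte numbers in the rises of lysosomal genes was not tested. In bulk RNA of a mixed population, more cells of a type and more RNA of a gene per cell cannot be told apart.

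ATP6V0D2, the d2 subunit of the pump found in macrophages and osteoclasts, had the highest log2 FC among the called genes with a symbol. Its levels were -0.09, -0.60, -0.58 and -0.95 at T4 and 5.20, 5.92, 6.80 and 5.70 at T24. It was well above background on 1 of 4 arrays at T4 and on 4 of 4 at T24, every T24 array lay far above every T4 array, and the log2 FC was 6.46 ± 0.35 (adjusted p = 3.10e-11 by limma). Other subunits were already well above background on all 4 arrays at T4. ATP6V0B, of the membrane sector, had levels of 5.01, 5.70, 5.52 and 5.53 at T4 and 8.25, 7.86, 7.71 and 7.75 at T24, a log2 FC of 2.45 ± 0.23 (limma adjusted p = 1.08e-07). ATP6AP1, an accessory protein of the pump, had 3.28, 3.91, 3.64 and 3.90 at T4 and 7.09, 6.78, 6.28 and 6.42 at T24, with 2.96 ± 0.30 (limma adjusted p = 3.28e-07). Neither gene had an overlap between the groups.

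CTSB, the gene of the cysteine protease cathepsin B, had levels of 4.78, 4.53, 4.09 and 3.73 at T4 and 8.68, 8.67, 8.50 and 8.19 at T24. The 4 rabbits lay close together at each time, and the log2 FC of 4.22 ± 0.36 (18.7-fold, limma adjusted p = 2.91e-08) was far above the spread between them. CTSD, the aspartic protease cathepsin D, had 3.52, 3.35, 2.83 and 2.78 at T4 and 6.20, 6.30, 6.27 and 5.42 at T24, with a log2 FC of 2.92 ± 0.34 (limma adjusted p = 2.06e-06). ASAH1, the acid ceramidase, had 1.53, 1.60, 1.35 and 1.28 at T4 and 4.97, 4.45, 4.90 and 4.55 at T24, with a log2 FC of 3.28 ± 0.21 (limma adjusted p = 3.90e-10). In these genes of protein and lipid digestion no T4 array reached the lowest T24 array.

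Genes that handle lipids in the lysosome were part of this group. LIPA, the acid lipase that frees cholesterol from its esters, had a log2 FC of 2.34 ± 0.21, and NPC2 and NPC1, which move cholesterol out of the lysosome, had 2.14 ± 0.35 and 1.73 ± 0.36 (limma adjusted p = 6.53e-08, 0.000138 and 0.00156). Of the 18 measured genes of lipid uptake, storage and efflux, 5 were higher and none lower, with a median of 0.41, and 3 of the 5 are these lysosomal genes. The others were LPL and FABP5. LPL, the lipoprotein lipase, had levels of -0.58, 0.45, 0.34 and -0.54 at T4 and 3.37, 4.64, 4.48 and 6.46 at T24, a log2 FC of 4.82 ± 0.51 (limma adjusted p = 5.05e-07), and was well above background on 2 arrays at T4. FABP5, a fatty acid carrier, had 1.75 ± 0.18 (limma adjusted p = 4.49e-07). Of 13 genes of cholesterol synthesis and the LDL receptor, 1 was higher (none without rabbit 2) and none lower, and 2 were higher with the rabbit as a block, a fit in which 2600 of all genes (9.0%) were higher and 6.54% lower.

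**Figure D1:**
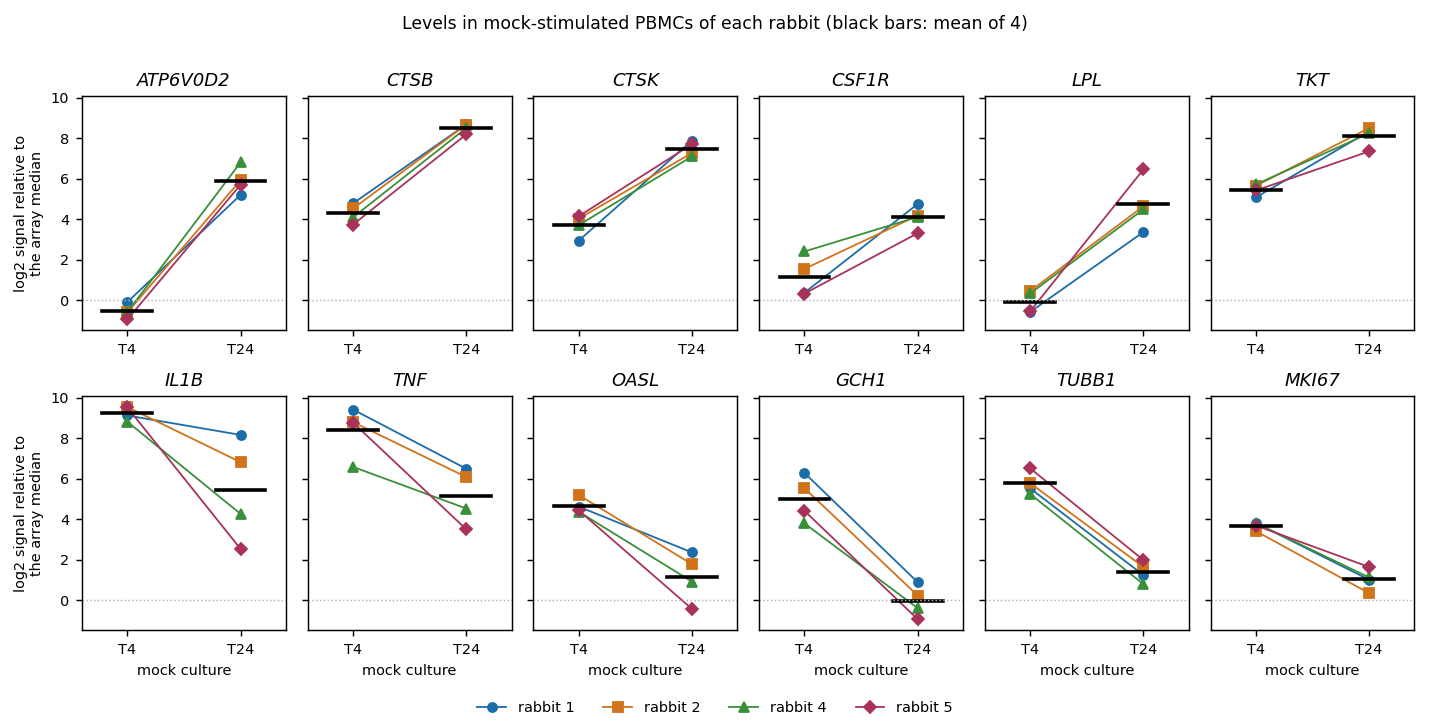
Levels of 12 genes on the 8 mock arrays, as log2 signal relative to the array median (y axis) at T4 and T24 (x axis), with a line and colour for each rabbit and black bars at the mean of 4. ATP6V0D2, CTSB, CTSK, CSF1R, LPL and TKT rose in each rabbit, the remaining 6 fell, and IL1B of rabbit 5 ended at 2.54 against 8.16 in rabbit 1.

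Some monocyte and macrophage genes were also higher. Of 12 measured monocyte markers, 5 were higher, none lower and 7 not called (median log2 FC 0.46), and of 16 macrophage maturation genes 9 were higher, none lower and 7 not called (median 1.97). Without rabbit 4, 6 macrophage maturation genes were higher, and 1 was lower without rabbit 1. With the rabbit as a block, 2 monocyte markers were lower, among them MNDA, a nuclear protein of myeloid cells with a log2 FC of -0.54 ± 0.23 (limma adjusted p = 0.159, and 0.00951 with the block), and 1 macrophage maturation gene was lower. The called members included receptors, membrane proteins and an oxidase subunit, while the others had values on either side of 0. The most negative was that of the macrophage maturation gene MARCO, with a log2 FC of -2.405 that was not called.

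CSF1R, the receptor for the macrophage growth factors CSF1 and IL34, had levels of 0.37, 1.55, 2.41 and 0.33 at T4 and 4.75, 4.18, 4.11 and 3.31 at T24. The T24 arrays were all higher than the T4 arrays, and rabbit 4, highest at T4, rose least, with a log2 FC of 2.92 ± 0.35 over the rabbits (limma adjusted p = 3.03e-06). CYBB, the catalytic subunit of the phagocyte NADPH oxidase, had 1.73, 2.52, 2.59 and 1.53 at T4 and 5.56, 5.56, 6.07 and 4.24 at T24, with a log2 FC of 3.27 ± 0.32 (limma adjusted p = 1.60e-07). CD68, a lysosomal glycoprotein of macrophages, had 4.78, 4.67, 4.19 and 2.89 at T4 and 7.04, 7.02, 7.22 and 6.10 at T24, with a log2 FC of 2.71 ± 0.47 (limma adjusted p = 0.000243). CD14, the LPS co-receptor, was also higher. Its levels were 7.14, 7.40, 8.06 and 6.92 at T4 and 9.20, 8.57, 9.28 and 7.93 at T24, with an overlap between the T24 array of rabbit 5 and the T4 array of rabbit 4, and its log2 FC of 1.36 ± 0.33 (limma adjusted p = 0.00664) lost its call without rabbit 1.

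Among macrophage maturation genes, CD9 and CD63, tetraspanins of the plasma membrane and of lysosomes, had log2 FC of 2.74 ± 0.36 and 2.38 ± 0.35 (limma adjusted p = 1.04e-05 and 3.31e-05). ITGAX, the integrin CD11c, had 2.52 ± 0.32 (limma adjusted p = 4.51e-06). SPP1, the secreted phosphoprotein osteopontin, had levels of 3.76, 4.19, 2.92 and 2.21 at T4 and 7.79, 7.06, 7.21 and 3.47 at T24. Rabbit 5 reached less at T24 than rabbits 1 and 2 had at T4, and the log2 FC of 3.11 ± 0.70 (limma adjusted p = 0.00309) lost its call without rabbit 4 and when the 8 mock arrays were fitted alone. MRC1, the mannose receptor, had 0.78, 0.99, 0.78 and -0.10 at T4 and 3.08, 3.85, 3.30 and 0.73 at T24, with a log2 FC of 2.13 ± 0.56 (limma adjusted p = 0.0122), a call lost without rabbit 1, 2 or 4 and when the 8 mock arrays were fitted alone.

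Of 12 measured genes of osteoclasts, the bone-resorbing cells that derive from the same precursors as macrophages, 7 were higher and 1 lower, with a median of 1.19. With the rabbit as a block, and without rabbit 5, 2 were lower. CTSK, the collagen-digesting cathepsin K, had levels of 2.94, 4.03, 3.71 and 4.14 at T4 and 7.88, 7.27, 7.10 and 7.71 at T24, with a log2 FC of 3.78 ± 0.36 (13.8-fold, limma adjusted p = 1.51e-07). CA2, a carbonic anhydrase, had 0.71, 0.65, -0.22 and 1.07 at T4 and 3.70, 3.84, 4.61 and 4.81 at T24, with a log2 FC of 3.69 ± 0.33 (limma adjusted p = 6.40e-08). In both genes every T24 array lay far above every T4 array. DCSTAMP, a membrane protein needed for cell fusion, was well above background on 0 of 4 arrays at T4 and on 4 of 4 at T24, and was at least 5.0-fold higher (limma adjusted p = 6.57e-05). The lower member was ITGB3, the integrin beta 3 subunit, which is also a platelet marker and had a log2 FC of -2.83 ± 0.27 (limma adjusted p = 1.60e-07), with probes from -3.88 to -0.56.

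MMP9, the gelatinase of matrix breakdown and a member of that list, had levels of 8.18, 8.11, 7.39 and 7.61 at T4 and 12.30, 11.92, 11.41 and 8.81 at T24. Rabbit 5 rose by 1.20 against 3.82 to 4.12 in the other rabbits, and the log2 FC was 3.29 ± 0.46 (limma adjusted p = 2.07e-05). MMP12, the macrophage elastase, had 1.41, 0.48, -0.65 and -1.14 at T4 and 4.76, 4.75, 2.53 and 3.78 at T24, with a log2 FC of 3.93 ± 0.60 (limma adjusted p = 5.40e-05), from a T4 level that was well above background on 2 arrays. Of the 14 measured metalloproteinases and inhibitors 4 were higher and 1, the inhibitor TIMP3, was lower, a call lost without rabbit 2, 4 or 5, with normexp and when the 8 mock arrays were fitted alone.

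Several of the strongest rises belong to none of these groups. MGP, the matrix Gla protein that binds calcium, had levels of -0.18, -0.40, -0.02 and -0.54 at T4 and 5.08, 5.09, 6.32 and 4.42 at T24, with a log2 FC of 5.51 ± 0.31 over its 9 probes (limma adjusted p = 4.58e-11). It was well above background on 1 array at T4 and on 4 at T24. TNFSF13, the B cell survival ligand APRIL, had 0.27, 0.85, 0.86 and 0.45 at T4 and 5.57, 5.83, 5.93 and 4.27 at T24, with a log2 FC of 4.79 ± 0.28 (limma adjusted p = 5.49e-11), with rabbit 5 lowest at T24. CPPED1, a phosphatase, had 2.55, 2.67, 2.29 and 2.46 at T4 and 5.88, 5.87, 6.33 and 6.07 at T24, with a log2 FC of 3.55 ± 0.21 (limma adjusted p = 8.38e-11), the 4 rabbits lying close together at each time. MLANA, an antigen of pigment cells, had 0.35, 0.25, 0.11 and 0.24 at T4 and 3.01, 3.93, 4.85 and 4.50 at T24, with a log2 FC of 3.83 ± 0.26 (limma adjusted p = 5.71e-10), with rabbit 1 lowest at T24 and no overlap.

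Of 24 genes of adhesion and the cytoskeleton, 5 were higher and 5 lower, and without rabbit 2 the lower ones were 3. PALLD, an actin-bundling protein, was well above background on no T4 array and on each T24 array, and was at least 16.1-fold higher (limma adjusted p = 1.38e-07). ACTA2, the smooth muscle actin, was likewise not well above background at T4 and was at least 8.71-fold higher (limma adjusted p = 2.11e-10). CAPG, an actin-capping protein, rose by 1.67 ± 0.31 (limma adjusted p = 0.000455).

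Of 18 measured genes of glycolysis, glucose uptake and the pentose phosphate route, 5 were higher and none lower. TKT and PGD, which were among them, belong to the pentose phosphate route, which supplies NADPH. TKT, the transketolase, had levels of 5.08, 5.65, 5.71 and 5.42 at T4 and 8.34, 8.50, 8.24 and 7.35 at T24, with a log2 FC of 2.64 ± 0.28 (limma adjusted p = 6.32e-07). Its T24 arrays were all above the T4 arrays. PGD, an oxidative enzyme of the route, had a log2 FC of 1.88 ± 0.27, and GPI and SLC16A3, a glycolytic enzyme and a lactate carrier, had 1.27 ± 0.28 and 1.46 ± 0.24 (limma adjusted p = 2.56e-05, 0.00295 and 0.000147). Of 35 nuclear genes of oxidative phosphorylation, 6 were higher, such as NDUFS3 of complex I with 0.95 ± 0.19 (limma adjusted p = 0.000965), and 1 was lower. The number of higher ones was 3 without rabbit 1 or rabbit 4, and 13 with array weights, and none was lower without rabbit 1, 2 or 4.

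Genes of inflammatory mediators were among those that fell. Of 33 measured cytokines, chemokines and related enzymes, 14 were lower, 3 higher and 16 not called at T24, with a median log2 FC of -1.07 that was -1.85 with the processed signal and -0.625 without rabbit 5. The medians of the rabbits were -0.489, -0.456, -0.287 and -1.65. In 17 of the 33 genes rabbit 5 had the largest change in the direction of the gene's mean change, whether up or down. The higher ones were the chemokines CCL2 and CCL17 and the IL1 receptor antagonist gene IL1RN, and 1 of them was called without rabbit 1 or rabbit 2. The call of IL1RN was also lost without rabbit 4, with the processed signal and when the 8 mock arrays were fitted alone.

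IL1B, the cytokine interleukin 1 beta, had levels of 9.12, 9.54, 8.81 and 9.52 at T4 and 8.16, 6.82, 4.26 and 2.54 at T24. At T4 the rabbits lay close together, and at T24 they spread widely, with rabbit 1 falling least and rabbit 5 lowest. The log2 FC of -3.80 ± 0.77 (limma adjusted p = 0.00123) thus averages falls of very unequal size. TNF, the tumour necrosis factor gene, had 9.42, 8.79, 6.58 and 8.77 at T4 and 6.49, 6.08, 4.53 and 3.50 at T24, with a log2 FC of -3.24 ± 0.64 (limma adjusted p = 0.000929). PTGS2, the inducible cyclooxygenase of prostaglandin synthesis, had 8.28, 8.28, 6.11 and 6.73 at T4 and 4.37, 4.28, 3.26 and 0.90 at T24, with a log2 FC of -4.15 ± 0.63 (limma adjusted p = 5.69e-05). In all 3 genes rabbit 5 had the lowest T24 level and every rabbit fell.

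CCL4, a chemokine for monocytes and T cells, had levels of 12.17, 11.60, 9.61 and 11.53 at T4 and 10.52, 9.96, 7.33 and 4.03 at T24. Its log2 FC was -3.27 ± 0.84 (limma adjusted p = 0.00963), and -1.86 without rabbit 5, whose T24 level was far below those of the other rabbits. The call of CCL4 was lost without rabbit 5 and with array weights. It was also lost when the 8 mock arrays were fitted alone, with or without the rabbit as a block. CCL2, the monocyte chemoattractant, moved the other way, with 1.30, 1.56, 2.54 and 3.33 at T4 and 6.31, 6.64, 4.53 and 5.26 at T24, with a log2 FC of 3.50 ± 0.60 (limma adjusted p = 0.000235). CCL17, a chemokine for T cells, had -0.11, -0.27, -0.49 and -0.21 at T4 and 5.68, 3.52, 2.18 and 0.57 at T24, a fan of T24 levels in which rabbit 1 was highest and rabbit 5 lowest. Its log2 FC was 3.26 ± 0.76 (limma adjusted p = 0.00432), and the call was lost without rabbit 1 or rabbit 2.

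TNFAIP6, which encodes the hyaluronan-binding protein TSG-6, had levels of 8.74, 9.01, 6.92 and 6.95 at T4 and 4.79, 5.11, 3.67 and -0.70 at T24. Rabbit 5 fell below the array median at T24, where 3 of 4 arrays were well above background, and the log2 FC was -4.69 ± 0.84 (limma adjusted p = 0.000385). GCH1, the first enzyme of tetrahydrobiopterin synthesis, had 6.28, 5.53, 3.79 and 4.42 at T4 and 0.89, 0.23, -0.39 and -0.93 at T24, the most negative log2 FC among the called genes with a symbol, -5.06 ± 0.49 (33.3-fold lower, limma adjusted p = 1.65e-07). SERPINB2, an inhibitor of plasminogen activators, had 7.31, 7.15, 6.26 and 6.86 at T4 and 2.71, 1.24, 1.45 and 2.98 at T24, with a log2 FC of -4.80 ± 0.41 (limma adjusted p = 3.01e-08). These 3 genes had no overlap between times.

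Of 12 measured NF-kappaB pathway genes, 4 were lower and none higher, and 6 were lower with the rabbit as a block. The subunit genes NFKB1 and NFKB2 had log2 FC of -1.80 ± 0.28 and -1.43 ± 0.27 (limma adjusted p = 6.53e-05 and 0.000559). Of 17 immediate early and KLF genes, 6 were lower and 1 was higher. NR4A3, an orphan nuclear receptor, had 2.83, 3.25, 3.56 and 2.94 at T4 and 1.18, 0.85, 1.03 and 0.91 at T24, with a log2 FC of -2.15 ± 0.20 (limma adjusted p = 1.15e-07), while FOS had -1.04 ± 0.22 and DUSP5, a phosphatase of ERK, -1.49 ± 0.29 (limma adjusted p = 0.00169 and 0.000929). The member that rose was JUN, the AP-1 partner of FOS, with 2.12, 2.29, 2.02 and 2.47 at T4 and 4.45, 4.18, 3.88 and 3.49 at T24, with a log2 FC of 1.78 ± 0.27 (limma adjusted p = 5.33e-05). Thus FOS was higher on each T4 array and JUN on each T24 array.

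Of 26 measured interferon response genes, 10 were lower and none higher, with a median log2 FC of -0.80, and with the rabbit as a block 1 was higher. The medians in rabbits 1, 2, 4 and 5 were -0.762, -0.380, -0.634 and -1.66. In 21 of the 26 genes rabbit 5 had the largest change in the direction of the gene's mean change. Without rabbit 2, 4 or 5 the lower ones were 6. OASL, a relative of the oligoadenylate synthetases, had levels of 4.62, 5.20, 4.37 and 4.43 at T4 and 2.37, 1.78, 0.92 and -0.42 at T24, with a log2 FC of -3.49 ± 0.49 (limma adjusted p = 2.02e-05). ISG15, a ubiquitin-like protein, had 9.59, 8.80, 8.44 and 9.02 at T4 and 8.21, 6.91, 6.30 and 3.89 at T24, with a log2 FC of -2.63 ± 0.57 (limma adjusted p = 0.00237), a call lost when the 8 mock arrays were fitted alone. Both genes fell in each rabbit and furthest in rabbit 5, and their T24 arrays lay below their T4 arrays.

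**Figure D2:**
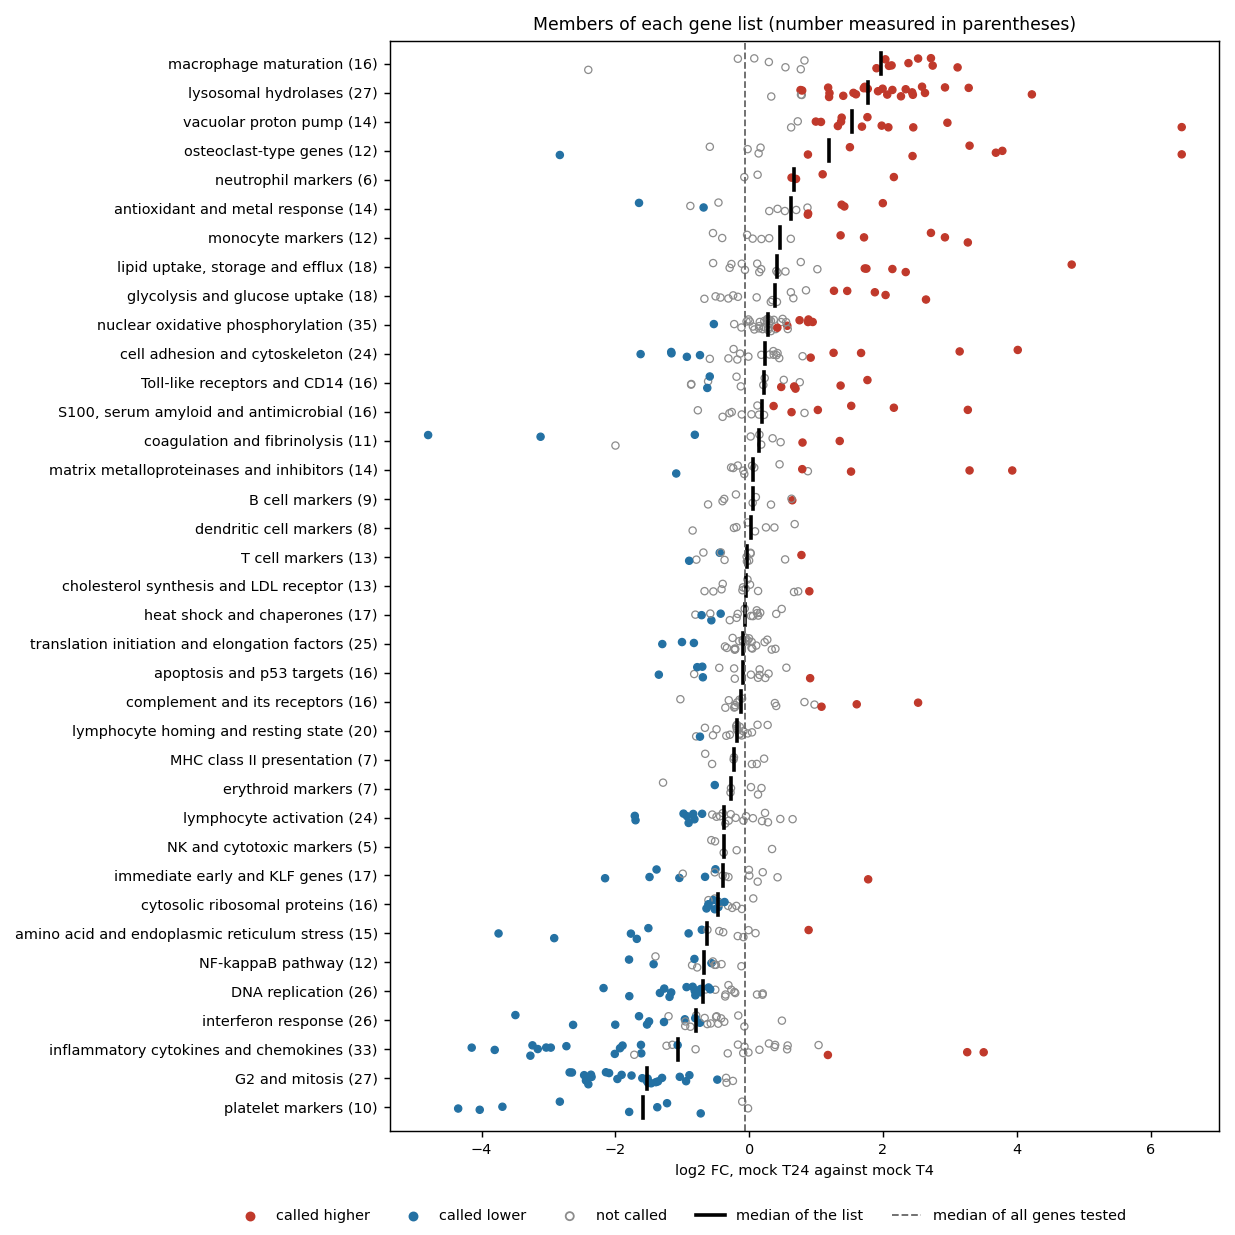
Log2 FC (T24 minus T4, x axis) of each measured member of 37 gene lists (y axis), coloured by whether the gene was called higher, lower or not by limma, with a bar at the median of the list and a dashed line at that of all genes. The lysosomal list has a median of 1.77 and no member called lower, and the list of G2 and mitosis a median of -1.53 and no member called higher.

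Platelet markers fell. Of 10 measured ones, 8 were lower and none higher, with a median log2 FC of -1.58 that was -3.21 with the processed signal and -2.596 without dim probes. GP1BA, which was not called, was not well above background on any mock array. The summed level of the platelet list was 5.98 to 7.24 at T4 and 3.07 to 3.57 at T24, so that the groups did not overlap.

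TUBB1, the beta tubulin of platelets, had levels of 5.52, 5.78, 5.24 and 6.51 at T4 and 1.24, 1.65, 0.80 and 1.99 at T24, with a log2 FC of -4.35 ± 0.38 (20.4-fold lower, limma adjusted p = 4.72e-08). Rabbit 5 was highest and rabbit 4 lowest at both times. TREML1, a receptor of platelet granules, had 3.47, 3.62, 2.84 and 4.65 at T4 and -0.78, -1.05, -0.23 and 0.53 at T24, with a log2 FC of -4.03 ± 0.46 (limma adjusted p = 1.40e-06), with 2 of 4 arrays well above background at T24. CLEC1B, the platelet receptor CLEC-2, had 2.64, 3.23, 2.18 and 3.38 at T4 and -1.12, -1.01, -0.90 and -0.29 at T24, with a log2 FC of -3.69 ± 0.35 (limma adjusted p = 1.08e-07), while its 4 probes ranged from -4.31 to -2.42. ITGA2B, which pairs with ITGB3 as the fibrinogen receptor, and GP6, a collagen receptor, were well above background on each T4 array and on no T24 array, and were at least 3.46-fold and 2.31-fold lower (limma adjusted p = 5.67e-06 and 6.48e-07). THBS1, thrombospondin, which platelets store and monocytes also make, had 7.04, 7.40, 6.69 and 5.98 at T4 and 4.91, 4.47, 3.47 and 1.78 at T24, with a log2 FC of -3.12 ± 0.53 (limma adjusted p = 0.000184), and the part of platelets in its fall was not tested.

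Few markers of other blood cells were called, where 10.3% of all genes with a symbol were higher and 5.94% lower. Of 13 T cell markers 1 was higher (7.69%) and 2 were lower (15.4%). Of 9 B cell markers 1 was higher (11.1%, and none without rabbit 2 or rabbit 4). Of 8 dendritic cell markers and 5 markers of NK and cytotoxic cells none was called in either direction. With the rabbit as a block, PRF1, the perforin gene, was lower (log2 FC -0.51 ± 0.26, limma adjusted p = 0.246, and 0.0448 with the block). It was also called without rabbit 5, but not when the 8 mock arrays were fitted alone with the block. LAT, an adaptor of the T cell receptor, had 0.78 ± 0.25, and ZAP70 and CD247, a kinase and a chain of that receptor complex, had -0.90 ± 0.28 and -0.44 ± 0.14 (limma adjusted p = 0.0445, 0.0392 and 0.0466). Each of these 3 calls was lost without rabbit 1 and without rabbit 4, those of LAT and CD247 without rabbit 2, and those of ZAP70 and CD247 without rabbit 5. All 3 were also lost with the slide as a block and when the 8 mock arrays were fitted alone, those of LAT and CD247 with the processed signal, that of LAT with quantile normalization or normexp and that of CD247 in the deposited table. The probes of CD4, the helper T cell co-receptor, and CD28, a costimulatory receptor, were not well above background on any mock array. The summed level of the T cell list was 4.57 to 5.12 at T4 and 4.34 to 4.91 at T24, and that of the B cell list 8.39 to 9.40 and 7.69 to 9.85, so that the times overlapped.

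Of 6 measured neutrophil markers, 4 were higher and none lower (median 0.67), and 2 were called without rabbit 4. CAMP, the cathelicidin antimicrobial peptide, had levels of 0.81, 1.47, 0.71 and -0.03 at T4 and 1.69, 3.13, 3.15 and 3.62 at T24, with a log2 FC of 2.16 ± 0.35 (limma adjusted p = 0.000133), with rabbit 5 changing most. MPO, the myeloperoxidase, had 1.10 ± 0.25 (limma adjusted p = 0.00322), a call lost without rabbit 4 and when the 8 mock arrays were fitted alone. Of 7 erythroid markers 1 was lower (none without rabbit 1, 2 or 5), and 2 with the rabbit as a block, among them HBB2, a haemoglobin gene with close relatives that its probes may also read (log2 FC -1.29 ± 0.77, limma adjusted p = 0.359, and 0.0114 with the block). Of 16 S100, serum amyloid and antimicrobial genes 6 were higher, and without rabbit 2 the number was 3.

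Genes of lymphocyte activation fell in part. Of 24 measured, 8 were lower and none higher, and 5 were lower without rabbit 1, 2 or 5. CD70, a costimulatory ligand, had levels of 3.03, 2.90, 3.21 and 2.99 at T4 and 1.23, 1.34, 1.65 and 1.08 at T24, with a log2 FC of -1.71 ± 0.33 (limma adjusted p = 0.000709). IRF4, a transcription factor of activated lymphocytes, had 2.06, 1.81, 1.94 and 2.56 at T4 and 0.40, 0.14, 0.23 and 0.80 at T24, with a log2 FC of -1.70 ± 0.22 (limma adjusted p = 7.36e-06). The T24 arrays of both genes lay below the T4 arrays, with rabbits close to each other. Of 20 genes of lymphocyte homing and the resting state 1 was lower (none without rabbit 1, 2 or 4, and 4 without rabbit 5), and of 7 genes of MHC class II presentation none was called.

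Cell division genes fell. Of 27 measured genes of G2 and mitosis, 24 were lower and none higher, with a median log2 FC of -1.53 (-2.71 with the processed signal), and of 26 DNA replication genes 15 were lower and none higher, with a median of -0.69. Without rabbit 1, the DNA replication genes called lower were 7.

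MKI67, the proliferation marker Ki-67, had levels of 3.82, 3.42, 3.81 and 3.69 at T4 and 1.02, 0.35, 1.13 and 1.64 at T24. The 4 rabbits were close at T4, and the log2 FC was -2.65 ± 0.29 (limma adjusted p = 8.45e-07). CDK1, the kinase that starts mitosis, had 4.32, 3.25, 3.35 and 3.17 at T4 and 1.35, 0.67, 1.17 and 1.13 at T24, with a log2 FC of -2.44 ± 0.28 (limma adjusted p = 1.58e-06), with rabbit 1 above the others at T4. CCNB1, its cyclin partner, had 4.57, 3.56, 3.91 and 4.07 at T4 and 1.82, 0.97, 1.51 and 1.94 at T24, with a log2 FC of -2.47 ± 0.33 (limma adjusted p = 9.90e-06). UBE2C and CDC20, which act in the anaphase-promoting complex pathway, had -2.40 ± 0.30 and -2.37 ± 0.38 (limma adjusted p = 5.52e-06 and 9.41e-05). Of the DNA replication genes, RRM2, a subunit of ribonucleotide reductase, had 2.78, 2.27, 2.65 and 2.97 at T4 and 0.66, 0.15, 0.48 and 0.68 at T24, with a log2 FC of -2.18 ± 0.24 (limma adjusted p = 8.71e-07), and TK1, the thymidine kinase, had -1.79 ± 0.28 (limma adjusted p = 6.32e-05). In each of these 7 genes the T4 arrays were all above the T24 arrays.

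Of 15 genes of the amino acid and endoplasmic reticulum stress response, 7 were lower and 1 was higher (none without rabbit 1, 2 or 4). PSAT1, of serine synthesis, had levels of 5.52, 5.51, 4.78 and 4.26 at T4 and 1.68, 1.42, 0.89 and 1.09 at T24, with a log2 FC of -3.75 ± 0.30 over 6 probes (limma adjusted p = 1.07e-08). PHGDH, the first enzyme of that route, was well above background on each T4 array and no T24 array, and was at least 2.96-fold lower (limma adjusted p = 1.36e-05). SLC7A5, a carrier of large neutral amino acids, had 8.01, 7.82, 6.96 and 6.58 at T4 and 5.23, 4.68, 4.13 and 3.67 at T24, with a log2 FC of -2.91 ± 0.36 (limma adjusted p = 4.60e-06), the rabbits keeping the same order at both times. SHMT2, the mitochondrial enzyme of serine breakdown, had -1.77 ± 0.26 (limma adjusted p = 3.89e-05).

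Of 16 measured ribosomal protein genes, 8 were lower and none higher. RPLP1, of the large subunit, had levels of 11.88, 11.77, 11.77 and 11.45 at T4 and 10.88, 11.03, 11.42 and 10.99 at T24, with a log2 FC of -0.64 ± 0.12 (limma adjusted p = 0.000759). In 13 of the 16 genes rabbit 1 had the largest change in the direction of the gene's mean change. The lower ones were 1 without rabbit 1, 1 without rabbit 2 and 3 without rabbit 4. Of 25 translation factor genes 3 were lower, a number that no left-out rabbit changed. Of 17 heat shock and chaperone genes 3 were lower, with 0 without rabbit 1 or rabbit 2 and 1 without rabbit 4 or rabbit 5.

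Among the remaining large falls, FERMT2, the integrin activator kindlin-2, had levels of 7.19, 6.88, 5.20 and 3.76 at T4 and 2.61, 2.12, 1.38 and -0.43 at T24, with a log2 FC of -4.34 ± 0.76 (limma adjusted p = 0.000275), with rabbit 5 lowest at both times. ARG1, the arginase of the urea cycle, had 4.80, 5.47, 5.24 and 3.83 at T4 and 1.33, 3.33, 0.86 and -0.48 at T24, with a log2 FC of -3.57 ± 0.62 (limma adjusted p = 0.000242). In both genes every rabbit fell and the times did not overlap.

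**Figure D3:**
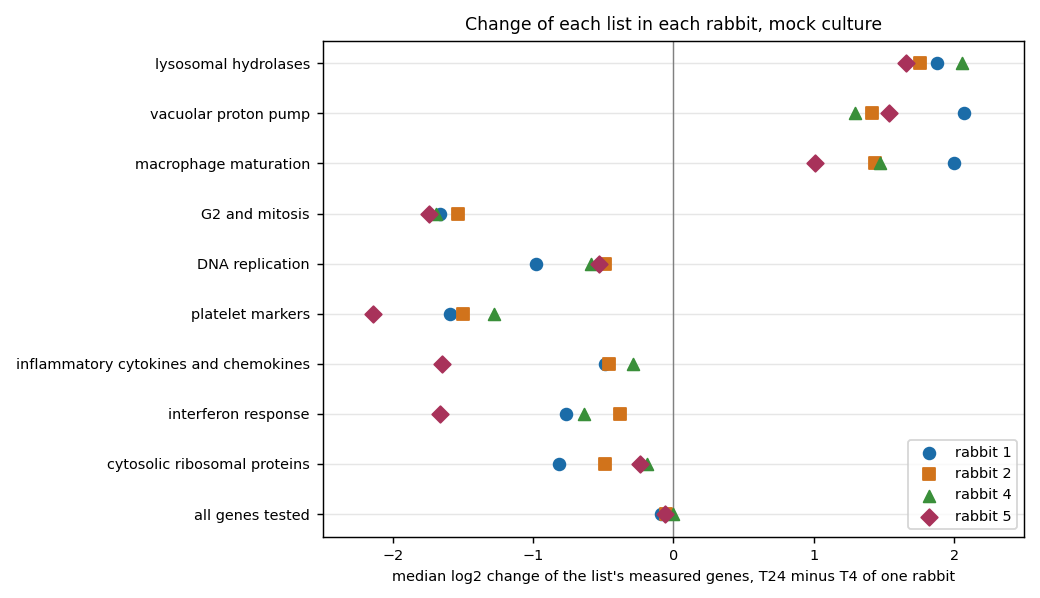
Median log2 FC (T24 minus T4, x axis) of 9 gene lists and of all genes tested (y axis) in each rabbit, with a point and colour per rabbit. In the interferon response list the points lie between -1.66 (rabbit 5) and -0.380 (rabbit 2), and in the inflammatory list rabbit 5 has -1.65 against -0.489 to -0.287 in the other rabbits.

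The same interval was then followed in the cultures stimulated by LPS, a bacterial cell wall component, and by PMA-Ionomycin, which activates protein kinase C and raises calcium. They come from other arrays of the same rabbits. The question was which changes of the mock culture differed when a stimulus was present, tested as the interaction of stimulation and time. Such an interaction can come from a difference from mock culture at T4, at T24 or at both, and these were not tested apart. The interaction passed for 562 genes with LPS (1.95% of those tested) and for 6512 with PMA-Ionomycin (22.5%). The number for LPS was 1666 with the rabbit as a block, and leaving out rabbits 1, 2, 4 and 5 in turn gave 403, 7, 31 and 184.

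Of the 2143 genes higher in mock culture, 1638 (76.4%) were also called higher between T4 and T24 with LPS, where 16.7% of all genes were, and they made up 34.0% of the genes higher there. With PMA-Ionomycin it was 1139 genes (53.1%, against 20.3% of all genes, and 19.4% of the genes higher there), and 176 were called lower. Of the 1482 lower genes, 1090 (73.5%, against 20.9% of all genes, and 18.0% of the genes lower there) were lower with LPS. With PMA-Ionomycin 485 (32.7%, against 13.4% of all genes, and 12.5% of the genes lower there) were lower and 487 (32.9%) were higher. The difference from mock culture passed for 145 of the higher genes with LPS (6.77%) and 1093 with PMA-Ionomycin (51%). Among the lower genes it passed for 48 (3.24%) and 834 (56.3%). Over all genes the shares were 1.95% with LPS and 22.5% with PMA-Ionomycin. The mock arrays both chose these genes and enter the difference, so part of any excess over those shares is built in.

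Of the cell division genes, 24 of 27 G2 and mitosis genes and 15 of 26 DNA replication genes were lower in mock culture. Most cell division genes were higher at T24 than at T4 with PMA-Ionomycin. There 22 of the 27 and 26 of the 26 were called higher and none lower, where 20.3% of all genes were higher. With LPS 20 of the 27 were lower and none higher, and 9 of the 26 were lower and 2 higher. The median of the G2 and mitosis list was -0.918 with LPS and 1.68 with PMA-Ionomycin, and all 24 members called in mock culture differed from it with PMA-Ionomycin. MKI67 had a log2 FC of 2.26 with PMA-Ionomycin and CDK1 of 3.30 (limma adjusted p of the difference from mock 5.35e-09 and 3.70e-10). With LPS the values were -2.08 and -2.15 (limma adjusted p of the difference 0.507 and 0.736), which did not pass. The difference with LPS was called for none of the 27 G2 and mitosis genes, and for 7 with the rabbit as a block. Among the 26 DNA replication genes it was called for RRM2 alone (log2 FC -0.84 with LPS, limma adjusted p of the difference 0.0412), a call lost when any 1 rabbit was left out, and for 9 genes with the rabbit as a block.

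Lysosomal genes had smaller log2 FC with PMA-Ionomycin than in mock culture. The list had a median of 0.285 there and of 2.21 with LPS, and the difference from mock culture passed for 21 of its 27 genes with PMA-Ionomycin. CTSB had a log2 FC of 5.03 with LPS and 0.43 with PMA-Ionomycin, and CTSK 5.50 and 0.43 (limma adjusted p of the difference from mock 0.444 and 5.60e-06 for CTSB, and 0.0831 and 3.16e-05 for CTSK). ATP6V0D2 had smaller log2 FC in both, 3.60 and 0.83 (limma adjusted p of the difference 0.00514 and 1.17e-08). The pump genes ATP6V0B and ATP6AP1 rose more with LPS, by 4.16 and 4.86 (limma adjusted p of the difference 0.0111 and 0.0242). The differences of ATP6V0D2, ATP6V0B and ATP6AP1 with LPS were not called without rabbit 2 or rabbit 4, and those of ATP6V0B and ATP6AP1 were also not called without rabbit 5, whereas the differences of CTSB, CTSK and ATP6V0D2 with PMA-Ionomycin were called without any 1 rabbit.

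Other genes parted between mock and LPS. MLANA had a log2 FC of 0.69 with LPS (limma adjusted p of the difference 0.000392) against its strong rise in mock culture. PALLD, well above background on no T4 array of either culture, had a mean level of 0.10 at T24 with LPS and of 3.39 in mock culture (limma adjusted p of the difference 0.00379). SERPINB2 had a log2 FC of -0.79 with LPS (limma adjusted p of the difference 0.00164) and IL1B 0.82 (0.0292 by limma). MT2A, a metallothionein that binds zinc and copper, had levels of 5.67, 5.37, 5.63 and 5.42 at T4 and 3.96, 3.62, 3.99 and 3.92 at T24 in mock culture, a log2 FC of -1.65 ± 0.27 (limma adjusted p = 0.000142), and 0.81 with LPS (limma adjusted p of the difference 0.00298). It fell in each rabbit in mock culture, and its mean was higher at T24 than at T4 with either stimulus. Of these differences with LPS, that of MLANA was called without any 1 rabbit, whereas that of SERPINB2 was lost without rabbit 2, those of PALLD and MT2A without rabbit 2 or rabbit 4, and that of IL1B without rabbit 2, 4 or 5.

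Among the genes that fell in mock culture, TUBB1 of platelets had a log2 FC of -3.39 with LPS and of -0.53 with PMA-Ionomycin (limma adjusted p of the difference 0.387 and 1.14e-05). CD70 rose by 1.75 with PMA-Ionomycin (limma adjusted p of the difference 5.09e-06), while IRF4 had -3.19 there, a larger fall than in mock culture (0.000855 by limma). JUN, which rose in mock culture, had -0.98 with PMA-Ionomycin (limma adjusted p of the difference 7.68e-06).

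**Figure D4:**
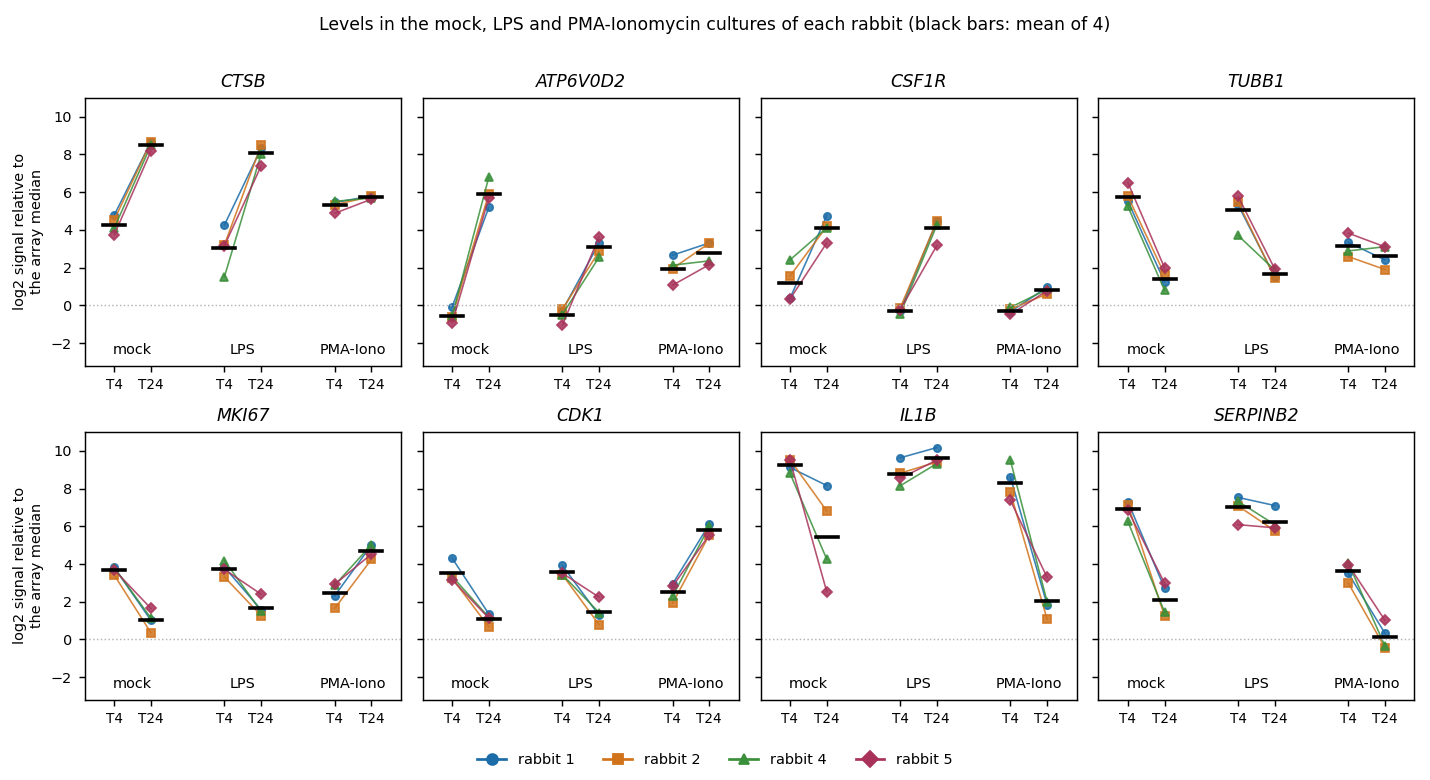
Levels of 8 genes as log2 signal relative to the array median (y axis) at T4 and T24 of the mock, LPS and PMA-Ionomycin cultures (x axis), with a line per rabbit and black bars at the mean of 4. MKI67 and CDK1 end at means of 1.03 and 1.08 in mock culture and of 4.70 and 5.79 with PMA-Ionomycin.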

How the data were processed

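RNA of PBMC cultures of 4 rabbits, 1 array per culture and 24 arrays in 6 groups, was measured on a one-colour Agilent array. For every array the authors deposited scanner output (Agilent Feature Extraction 10.7.3.1 per the submitters' processing notes) that holds spot intensities without scaling between arrays and flags for spots well above background. A deposited table of log2 values holds the same log2 median signals centred on the array mean (100% of values within 0.001 after a shift, column medians -1.11 to -0.811). Deposited tables of the authors' own comparisons were not used.

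As in the methods of the study, the log2 median signal of each spot was centred on the array median of the 61657 non-control spots. Spots marked as outliers (280 to 356 per mock array) were left out, spots were averaged over 42089 probes and probes over 28890 genes. Of the probes, 11506 were named by RefSeq accession and 8929 by gene number through a RefSeq gene table of the assembly mOryCun1.1, 439 by the genes that the study added to the array and 72 by the gene name of the file, and 21143 kept their identifier. The 6 group means were estimated from all 24 arrays by lmFit and eBayes of limma 3.58.1 in R 4.3.3, two-sided, with Benjamini-Hochberg adjustment over all genes. A lower bound on a fold change compared the brighter group's mean with the dim signal, or with the least signal of a probe well above background where that was higher. Tables and plots were made with Python 3.11.15, pandas 2.3.3, numpy 2.4.6 and matplotlib 3.10.9. Precision is limited by the 4 arrays per group. In simulated data for this comparison (28774 genes), limma recovered 84% of 100 genes changed by 1 and 98% of 100 genes changed by 2 on the log2 scale, with 1.09% of calls false. The simulated noise was independent between genes and arrays and held no rabbit effect, and no other genes were changed. These rates therefore need not hold for the data.

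The rabbit numbers in the labels mark the same animals at both times. Deviations of the T4 and T24 arrays from their group means correlated by 0.201, 0.565, 0.153 and 0.629 in rabbits 1, 2, 4 and 5. The methods use no pairing, so a blocked fit by rabbit was an alternative. Mock arrays lay on 3 slides, with both arrays of rabbits 1, 2 and 5 on the same slide. The processed signal, scaled by the 75th percentile of each array, was also tried, as were quantile normalization, normexp with an offset of 50, the deposited table, leaving out dim probes, keeping outlier spots, the 8 mock arrays alone, the slide as a block, array weights, trend and robust eBayes, leaving out each rabbit, single probes and a fold of at least 2.

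The text names the 12 largest rises and the 12 largest falls among called genes that have a symbol, moved in 1 direction in 4 of 4 rabbits and had 4 of 4 arrays well above background at the brighter time, and up to 6 called members of each of 37 gene lists with the largest change. Members of cell type marker lists could be named whether called or not. Other pump genes, IL1RN and MARCO were named after their values were seen. Some genes that met these criteria are not reported here. The comparison and the lists were chosen with earlier results of these data known, and no test of a list was made.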

Additional observations from a re-analysis of the deposited data

Results flagged for a closer look

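In groups of 4 mock arrays, an array was marked when its gap to the nearest other array took a larger part of the range of the group than Dixon's 95% critical value allows, which chance does for about 1 group in 20. Of 182 groups checked, 6 were marked (3.3%). SPP1 at T24 was 3.47 in rabbit 5 against 7.06 to 7.79 in the other rabbits, and CTSD at T24 was 5.42 in rabbit 5 against 6.20 to 6.30. ITGA2B at T4 was 1.99 in rabbit 5 against 0.88 to 1.00. ITGAX at T4 was 3.21 in rabbit 4 against 2.40 to 2.52, and CDK1 at T4 was 4.32 in rabbit 1 against 3.17 to 3.35. The median local background of the T4 array of rabbit 2 was 28, against 32 on each of the other T4 arrays.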

How the results depend on the processing

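With other scalings, filters and models the numbers of higher and lower genes ranged from 1555 (8 mock arrays alone) to 2680 (array weights) and from 1062 to 1888, and leaving out 1 rabbit gave 1333 to 2136 higher and 819 to 1537 lower genes. On single probes the calls were 3561 and 2238, and a fold of at least 2 left 798 and 621 genes and 4150 for the difference with PMA-Ionomycin. Lower genes were 40.9% of all calls, and 51.1% with the processed signal, where the median of all genes was -0.119. It was 0.041 without dim probes, against -0.065.

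The samples are paired by rabbit. With the rabbit as a block 2600 genes were higher and 1888 lower, and 2138 and 1474 of the genes called without it were among them. Of the 87 named genes, which leave out MARCO and IL1RN, MNDA, PRF1 and HBB2 gained a call with the block and none lost it. PRF1 also gained one without rabbit 5. With the block on the 8 mock arrays alone, MNDA and HBB2 gained a call, PRF1 did not, and CCL4, CD247 and LAT lost theirs. The difference with LPS was called for 13 of the 87 named genes, and for 28 with the block, and that with PMA-Ionomycin for 52 and 57. The difference with LPS was called for 176 genes with the processed signal, 1666 in the blocked fit, 2045 with array weights and 7 to 403 when a rabbit was left out. The cause was not tested.

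Calls were lost without some rabbits for CCL4, CCL17, CD14, CD247, IL1RN (without rabbits 1, 2 and 4), LAT, MPO, MRC1, SPP1, TIMP3 and ZAP70. They were lost in the 8 mock arrays alone for CCL4, CD247, IL1RN, ISG15, LAT, MPO, MRC1, SPP1, TIMP3 and ZAP70, with the slide as a block for CD247, IL1RN, LAT and ZAP70, with trend and robust eBayes for IL1RN, with array weights for CCL4, with the processed signal for CD247, IL1RN and LAT, with quantile normalization for LAT, with normexp for LAT and TIMP3, and in the deposited table for CD247. The median log2 FC of a list printed above moved by more than 1.5 times with the processed signal for the platelet (-3.21), G2 and mitosis (-2.71), inflammatory (-1.85), monocyte (0.876) and neutrophil (1.39) lists, without dim probes for the platelet (-2.596) and osteoclast (1.97) lists, with array weights for the interferon (-0.527) and lipid (0.642) lists, without rabbit 5 for the inflammatory list (-0.625) and without rabbit 1 for the lipid list (0.238). In the 8 mock arrays alone 5 interferon, 3 ribosomal and 1 heat shock gene were lower and 2 neutrophil markers higher, and 4 ribosomal genes were lower with quantile normalization or normexp. The log2 FC of single genes also moved over these fits, for example that of FOS between -2.52 and -0.803 and that of CLEC1B between -6.531 and -3.248. With the slide as a block 2254 genes were higher and 1533 lower. The differences within the 3 slides had the sign of the whole in the 84 called genes of those named, but they rest largely on the pairs of single rabbits, and many of these genes were chosen for moving in 1 direction in every rabbit, so this is no separate check. Genes dim at T4 or T24 have bounds in place of values, and 123 of the higher and 276 of the lower genes were well above background on no array of the dimmer time.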

Other observations

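Toll-like receptor and antioxidant genes were called in both directions, where 7.42% of all genes were higher and 5.13% lower. Among genes with a symbol, from which the lists were drawn, the shares were 10.3% and 5.94%. Of 16 measured Toll-like receptor pathway genes 5 were higher (31.2%) and 2 lower (12.5%). Without rabbits 1, 2, 4 and 5 in turn, the higher ones were 2, 3, 3 and 4 and the lower ones 1, 0, 0 and 4. Of 14 antioxidant and metal response genes 5 were higher (35.7%) and 2 lower (14.3%), with 3 higher and 1 lower without rabbit 1. Of 16 apoptosis and p53 target genes 1 was higher (6.25%) and 4 were lower (25.0%). None of these was higher without rabbit 1, and 1 was lower without rabbit 1 and 2 without rabbit 2. Of 16 complement genes 3 were higher (18.8%) and none lower, with 1 lower when the rabbit was a block, and 5 higher and 2 lower without rabbit 5.

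STK3, a kinase of the Hippo pathway chosen here after its values were seen, has 1 probe on 1 spot. Its level was 12.04 in rabbit 2 at T4 and between -0.93 and -0.52 on the other 7 mock arrays, and it was not called (log2 FC -3.14 ± 1.66 SE, adjusted p = 0.279 by limma). The cause was not tested.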
